A study of Mus musculus with 4 samples.

Results

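The genes described here mark the oligodendrocyte lineage, from dividing precursors to the cells that wrap axons in myelin, in mouse tissue holding thalamus and hypothalamus at postnatal day 14. They were chosen as a list of 38 names of lineage and myelin genes, matched to the probes of the array through the RefSeq accession of each probe. Of these, 37 had a named probe and were tested among 21426 genes and unnamed transcripts in all; Ermn had no named probe. All 37 were well above background on all 4 arrays, so none passed a filter through one group alone. Dark-reared mice came from pregnant dams moved 1 to 4 days before delivery into a cage covered with thick black plastic, were handled in dim red light, and remained dark-reared up to sampling. Control mice had standard cages and 12 hours of light a day. Each group had 2 samples called biological replicates, 1 one-colour array each, and the labels give no strain, sex or number of animals per sample, nor the borders of the dissection. The p-values therefore measure the spread between these samples, as moderated by the spread over all genes tested. The smallest p of an exact permutation of 2 arrays against 2 (two-sided) is 0.333.

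Oligodendrocytes arise from precursors that carry the platelet-derived growth factor receptor Pdgfra and the proteoglycan Cspg4. A precursor that leaves the cell cycle passes through a short newly formed stage, marked by Gpr17, Bcas1 and Enpp6, and then switches on the genes of the sheath under the transcription factors Sox10 and Myrf. In rodents much of the forebrain is myelinated in the weeks after birth, so the sampled age falls in a period when myelin transcripts are being built up. The members were read by these stages: 2 precursor genes, 4 transcription factors active across the lineage, 4 genes placed with the newly formed stage and 28 of myelinating cells, 27 of them measured. Tcf7l1, a TCF/LEF transcription factor of Wnt signalling, was put with the newly formed genes by its place in the list alone.

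The starts of 4 members are shown as examples and do not stand for the other members. Opalin, Cnp and Mal are sheath genes with their lowest signal on the same array, and Pdgfra is a precursor gene with its highest signal there. Each window holds 250 bases before and 50 after an annotated start, 5′ to 3′ on the strand of the gene, from RefSeq on GRCm38.p6. Capitals mark 3 motifs searched on both strands, ACAAAG for SOX factors, CTGGCAC for MYRF and the E-box CAGCTG, and no matches overlap in these windows. Opalin lies at chr19:41077064-41077363 (minus strand), Cnp at chr11:100574689-100574988 (plus strand), Mal at chr2:127656646-127656945 (minus strand) and Pdgfra at chr5:75152001-75152300 (plus strand).
Opalin: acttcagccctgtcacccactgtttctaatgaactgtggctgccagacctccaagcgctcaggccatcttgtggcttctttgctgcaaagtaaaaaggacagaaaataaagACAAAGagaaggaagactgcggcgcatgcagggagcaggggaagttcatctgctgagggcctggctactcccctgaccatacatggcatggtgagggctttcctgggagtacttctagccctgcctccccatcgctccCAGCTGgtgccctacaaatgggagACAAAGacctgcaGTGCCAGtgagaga
Cnp: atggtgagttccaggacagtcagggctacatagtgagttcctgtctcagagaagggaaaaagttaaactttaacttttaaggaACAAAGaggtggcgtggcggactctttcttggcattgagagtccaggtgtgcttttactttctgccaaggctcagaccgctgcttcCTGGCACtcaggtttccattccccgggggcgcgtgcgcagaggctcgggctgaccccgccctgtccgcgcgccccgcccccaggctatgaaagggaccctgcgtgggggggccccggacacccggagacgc
Mal: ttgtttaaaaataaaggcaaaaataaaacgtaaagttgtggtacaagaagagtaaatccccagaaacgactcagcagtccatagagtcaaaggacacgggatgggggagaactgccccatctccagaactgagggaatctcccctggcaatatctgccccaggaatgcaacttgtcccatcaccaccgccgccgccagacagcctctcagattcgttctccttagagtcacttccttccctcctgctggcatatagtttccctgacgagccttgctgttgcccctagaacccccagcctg
Pdgfra: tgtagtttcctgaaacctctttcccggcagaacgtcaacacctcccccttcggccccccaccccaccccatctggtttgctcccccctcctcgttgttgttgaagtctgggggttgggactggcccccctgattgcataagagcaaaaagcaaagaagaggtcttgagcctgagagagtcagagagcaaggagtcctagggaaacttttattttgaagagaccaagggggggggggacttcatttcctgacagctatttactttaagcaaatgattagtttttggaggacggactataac
The Opalin window holds SOX, E-box and MYRF matches and the Cnp window a SOX and a MYRF match, while the Mal and Pdgfra windows hold none of these letters. Of 37 measured members, 27 had a window in the table, 40 windows in all. The SOX letters were found in 12 of the 40 windows, against 18.7% of all 32851 windows. The MYRF letters were found in 6 of the 40, those of Mag, Cnp, Opalin, Tmem125 and Lpar1, against 5.01% of all windows. The E-box letters were found in 5 of the 40, against 16.3% of all windows. A gene can have more than 1 window, so windows are not separate genes. Counted by gene, the SOX letters were found in 9 of the 27 members, against 21.0% of all 27025 genes with a window. The MYRF letters were found in 5 of the 27, against 5.73%, and the E-box letters in 4 of the 27, against 18.3%. A match describes the letters of the window and does not show binding, and a window without one lacks only these letters.

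The arrays differed in more than the rearing. Of all probes, 70.6% in dark-reared 1 and 70.9% in dark-reared 2 were well above background, against 73.3% in control 1 and 65.9% in control 2. Saturation was found at 0 spots. Dark-reared 2 and control 2 lay on the same slide, while dark-reared 1 and control 1 each lay on a slide of its own, per the file headers. Of the labelled tissues, all 14 tested thalamus and all 12 tested hypothalamus markers were well above background on the 4 arrays. A gene was tested only if well above background on both arrays of 1 group or both, so the filter largely sets this count. Another 5 hypothalamus markers (Pmch, Agrp, Sim1, Otp and Gpr165) were not among the genes tested, for want of a named probe or of signal. The thalamus median deviated from the 4-array mean by -0.97 in dark-reared 1 and 0.49 in dark-reared 2, against 1.11 in control 1 and -0.45 in control 2. The hypothalamus median deviated by -1.27 and 0.22 under dark rearing, against 0.97 and 0.02 under control housing. Dark-reared 1 was thus the low array for the thalamus and hypothalamus markers, and dark-reared 2, as described next, the low array for myelin genes. Striatum markers were also lowest in dark-reared 2, with a median deviation of -0.86.

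Genes of myelinating cells had similar signals in dark-reared 1 and control 1, were lower in control 2 and lowest in dark-reared 2. The 2 precursor members were nearly level on all 4 arrays. Values are log2 signals, each relative to the 75th percentile of its array, and levels are compared for the same probe alone. Over the 27 myelinating members the median deviation from a gene's own 4-array mean was 0.66 in dark-reared 1 and -1.26 in dark-reared 2, against 0.80 in control 1 and -0.15 in control 2. Over the 4 newly formed members it was 0.22 and -0.64 under dark rearing, against 0.46 and -0.05 under control housing. Over the 4 lineage-wide transcription factors it was 0.15 and -0.23, against 0.30 and -0.14. For the 2 precursor genes the median deviation was -0.06 and -0.0014 under dark rearing, against 0.08 and -0.02 under control housing. On each of the 4 arrays the median lay furthest from zero in the myelinating genes. The median range over the 4 arrays was 0.31 for precursor, 0.51 for lineage-wide, 1.10 for newly formed and 2.06 for myelinating members, beside 0.42 over all genes tested. In tissue RNA, fewer oligodendrocytes and less of a transcript per cell cannot be told apart.

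**Figure D1:**
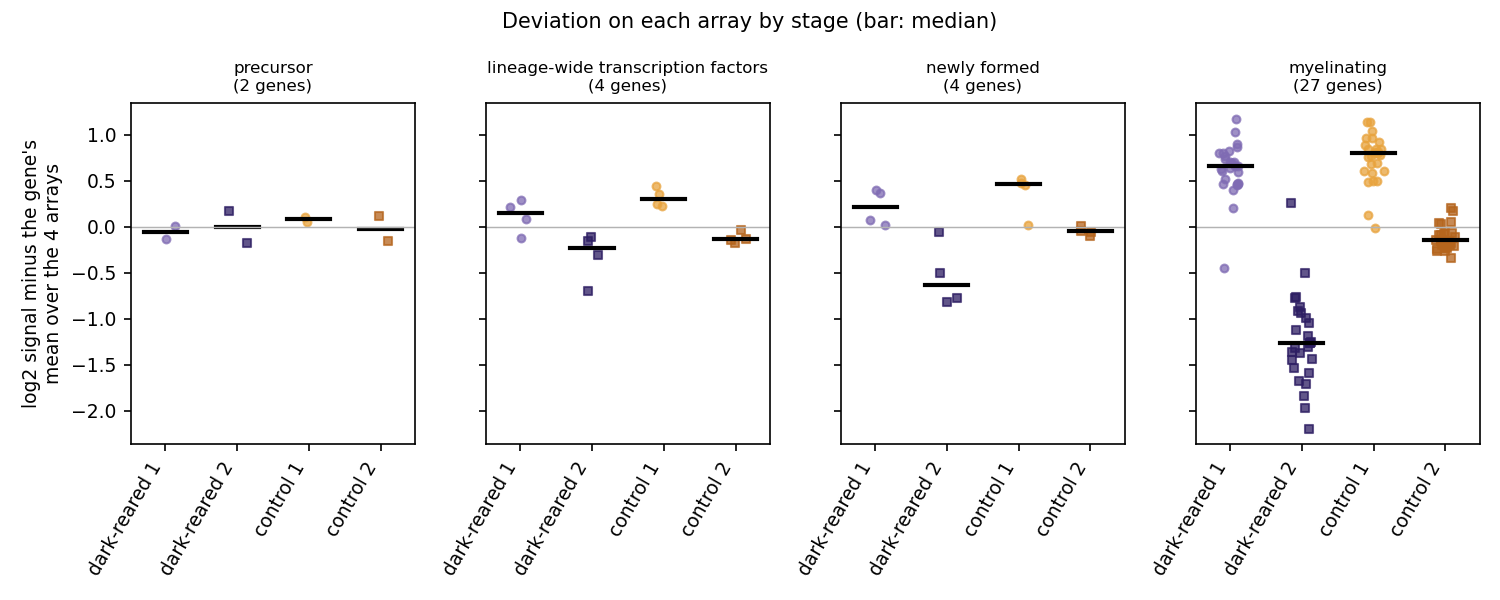
Deviation of each member from its own 4-array mean (log2, vertical axis) on each dark-reared and each control array, with 1 panel per stage and a bar at the median. The spread between arrays is widest in the myelinating panel, where dark-reared 2 has a median of -1.26 and control 1 a median of 0.80.

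No member passed the test between rearing conditions. With limma, 0 of 37 members had a Benjamini-Hochberg adjusted p under 0.05, beside 0.0% of all genes tested, and 0 had an unadjusted p under 0.05, beside 1.25% of all genes tested. The lowest unadjusted p among members was 0.165, for Gpr17, and every member's adjusted p rounded to 1.00. The mean difference was below zero in 35 of 37 members, beside 51.9% of all genes tested. The median difference between dark-reared and control samples was -0.57 over myelinating, -0.41 over newly formed, -0.16 over lineage-wide and -0.06 over precursor members, beside -0.01 over all genes tested. The sign of the median turned on dark-reared 2. Without dark-reared 2 the myelinating median was 0.36, with 26 of 27 members above zero, and without dark-reared 1 it was -1.53, with 26 of 27 below zero. Without control 1 it was -0.23 and without control 2 it was -1.06. Within the shared slide, which has 1 sample of each group and so no test, it was -1.08.

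Groups that did not overlap were rare among the members. Cspg4 alone had both dark-reared values below both control values, 1 of 37 members beside 9.58% of all genes tested, and 0 of 37 were higher without overlap, beside 9.5% of all genes tested. At 2-fold or more, 0 of 37 were higher without overlap, beside 0.429% of all genes tested, and 0 of 37 lower, beside 0.775% of all genes tested. The gap between the dark-reared arrays was larger than the group difference in 36 of 37 members, beside 75.2% of all genes tested. The gap between the control arrays was larger than the group difference in 31 of 37, beside 69.4% of all genes tested. The gap between samples reared alike was thus wider than the group difference for most members, as for most genes tested. It compares single arrays, while the group difference compares means of 2 arrays, which by itself favours the wider gap.

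The 2 precursor members were close to level. Pdgfra, the receptor through which platelet-derived growth factor keeps precursors dividing, had log2 signals of 1.32 and 1.63 under dark rearing, against 1.56 and 1.30 under control housing. Its difference of 0.05 (standard error 0.20) was the largest positive one among the members, and the groups overlapped. Cspg4, the NG2 proteoglycan of the precursor surface, had 1.46 and 1.27 under dark rearing, against 1.51 and 1.57 under control housing, a difference of -0.17 (standard error 0.16, adjusted p = 1.00 with limma). Dark-reared 1 differed from control 1 by -0.04, less than the -0.19 by which dark-reared 2 differed from dark-reared 1. On median scaling the Cspg4 groups overlapped. They also overlapped on its second detected probe, with 1.29 and 1.40 under dark rearing, against 1.37 and 1.47 under control housing.

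The transcription factors of the whole lineage had small and uneven differences. Olig2, a basic helix-loop-helix factor that specifies the lineage, had log2 signals of 0.52 and 0.27 under dark rearing, against 0.68 and 0.26 under control housing. Its relative Olig1 had 4.29 and 3.76 under dark rearing, against 4.30 and 3.93 under control housing. In both genes the lower arrays were dark-reared 2 and control 2, which lay on the shared slide. Nkx2-2, a homeodomain factor that promotes differentiation of precursors, stood out in control 1 alone, at -0.72 and -0.71 under dark rearing, against -0.24 and -0.73 under control housing. Sox10, the HMG-box factor that activates myelin genes, had 3.03 and 2.04 under dark rearing, against 3.18 and 2.71 under control housing. Of these 4 factors Sox10 had the widest range over the arrays, at 1.14.

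Newly formed genes lay between precursor and myelinating genes in the size of their deviations. Gpr17, a G protein-coupled receptor of committed precursors, had log2 signals of 5.56 and 5.04 under dark rearing, against 6.01 and 5.55 under control housing. Its difference of -0.48 (standard error 0.28) had nearly the same size between dark-reared 1 and control 1 (-0.45) as between dark-reared 2 and control 2 (-0.51), and dark-reared 1 and control 2 were level. Of the members, Gpr17 had the lowest unadjusted p, and its groups did not overlap when the probes of a gene were averaged or the background was removed with normexp. Bcas1, which marks oligodendrocytes at the start of myelination, had 4.17 and 3.04 under dark rearing, against 4.26 and 3.76 under control housing. Enpp6, a choline phosphodiesterase of newly forming oligodendrocytes, had 0.08 and -1.14 under dark rearing, against 0.19 and -0.43 under control housing. Gpr17, Bcas1 and Enpp6 shared the array order of the myelin genes, with dark-reared 2 lowest and control 1 highest, as did Sox10 and Olig1. Tcf7l1 had -0.50 and -0.63 under dark rearing, against -0.55 and -0.62 under control housing, a difference of 0.02 (standard error 0.15) that was below zero with its probes averaged. Its range of 0.13 over the 4 arrays was the narrowest of all members.

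**Figure D2:**
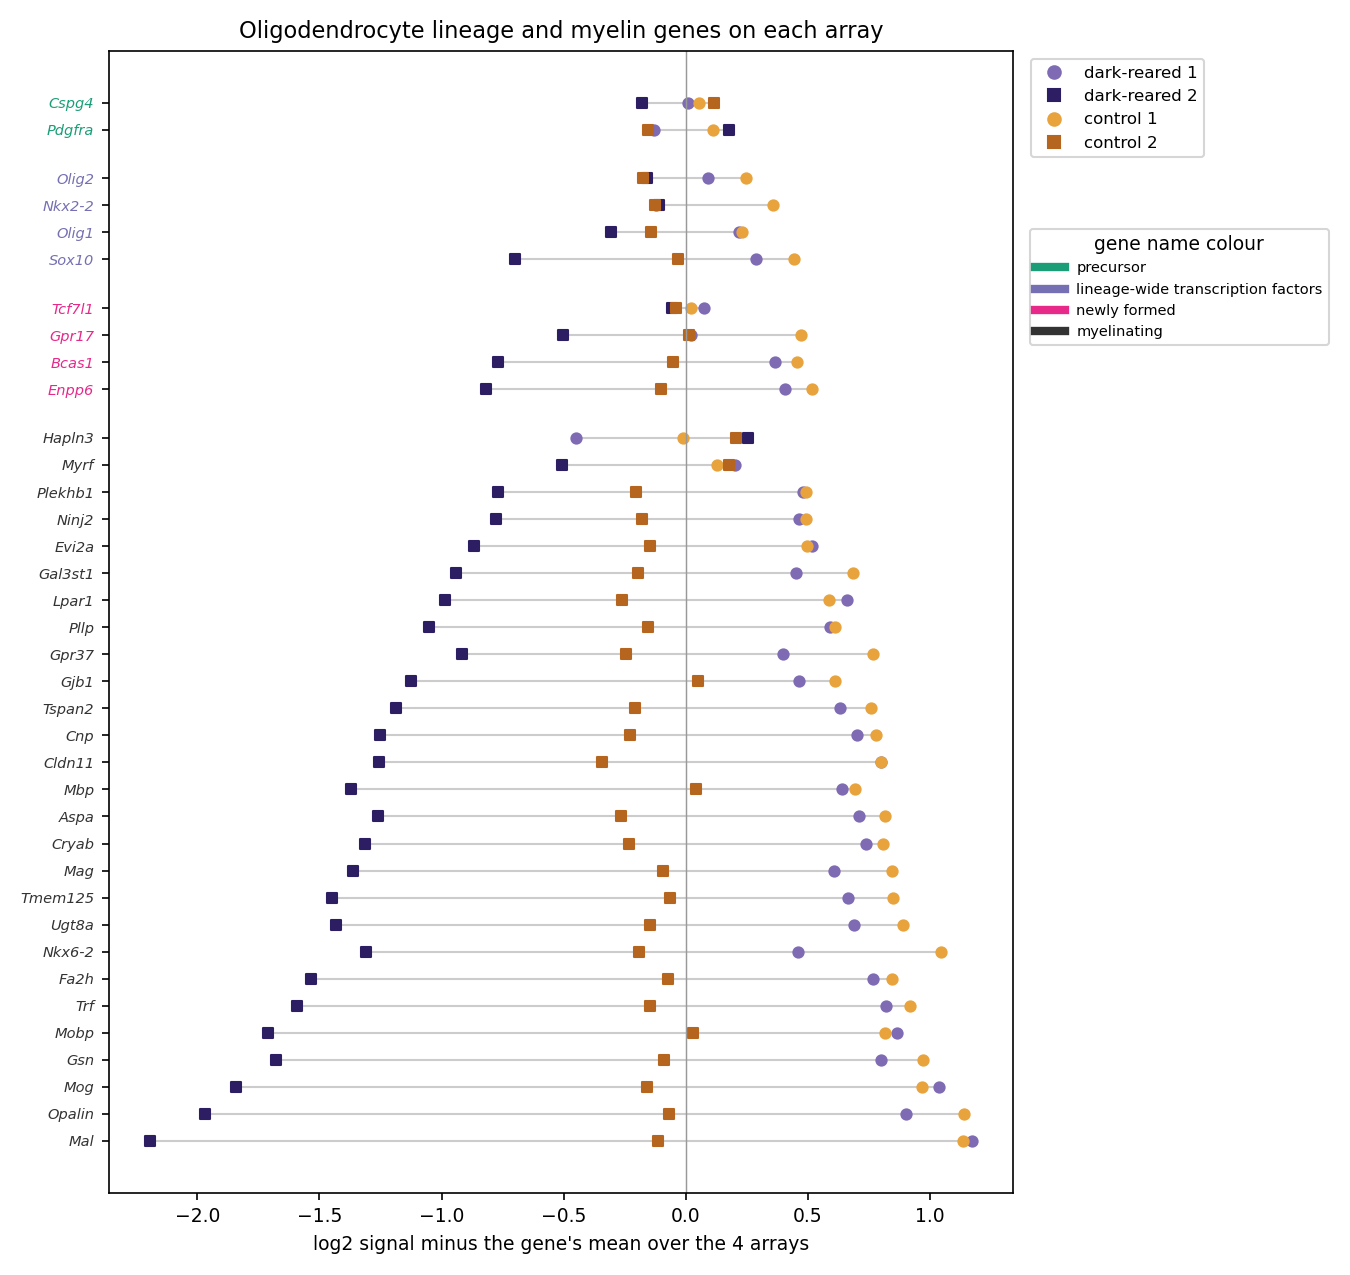
Log2 signal of each of the 37 measured members minus its own 4-array mean, with 1 row per gene sorted by range within its stage and 1 symbol per array. In the myelinating rows dark-reared 2 lies at the left end for every gene but Hapln3, and the range reaches 3.37 for Mal.

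The transcription factors of myelinating cells were lowest in dark-reared 2. Myrf, the membrane-bound factor that switches on the myelin programme, was dim, with log2 signals of -3.70 and -4.41 under dark rearing, against -3.77 and -3.72 under control housing. It was low in dark-reared 2 alone, and control 2 was level with control 1, unlike most myelinating members. Nkx6-2, a homeodomain factor of myelinating oligodendrocytes, had 2.12 and 0.35 under dark rearing, against 2.70 and 1.47 under control housing. Its difference of -0.58 between dark-reared 1 and control 1 was the largest in size among the members for that pair.

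Genes of lipid and acetate metabolism in myelinating cells had 1 array order in common. Ugt8a, which makes galactosylceramide, had log2 signals of 2.36 and 0.24 under dark rearing, against 2.56 and 1.52 under control housing. Fa2h, which hydroxylates the fatty acids of myelin lipids, had 3.05 and 0.75 under dark rearing, against 3.12 and 2.21 under control housing, so that dark-reared 1 was 4.93-fold above dark-reared 2. Gal3st1, which sulfates galactosylceramide to sulfatide, had 1.59 and 0.20 under dark rearing, against 1.82 and 0.94 under control housing. Aspa, which splits N-acetylaspartate into aspartate and acetate, had the same array order, with 0.53 and -1.43 under dark rearing, against 0.64 and -0.44 under control housing. All 4 lipid genes were lowest in dark-reared 2, second lowest in control 2 and highest in control 1. Their median difference between rearing conditions was -0.65, with standard errors from 0.60 to 0.89, and none passed the test.

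The members with the 3 widest ranges were structural genes of the sheath. Mal, a proteolipid of myelin membrane rafts, had log2 signals of 2.69 and -0.68 under dark rearing, against 2.65 and 1.40 under control housing. Dark-reared 1 was 10.3-fold above dark-reared 2, and control 2 was 4.22-fold above dark-reared 2, while dark-reared 1 and control 1 were level. Its group difference of -1.02 had a standard error of 1.28 (adjusted p = 1.00 with limma). Opalin, a membrane glycoprotein of oligodendrocytes, had -0.40 and -3.27 under dark rearing, against -0.17 and -1.38 under control housing, and had the most negative group difference of all members, -1.07 (standard error 1.12, adjusted p = 1.00 with limma). Mog, an immunoglobulin-like protein of the outer surface of the sheath, had 0.65 and -2.22 under dark rearing, against 0.58 and -0.54 under control housing. In all 3 genes the groups overlapped, since dark-reared 1 was above control 2.

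The major sheath genes showed the same order at smaller ranges. Mbp, whose protein compacts the cytoplasmic faces of the membrane, had log2 signals of 7.50 and 5.49 under dark rearing, against 7.55 and 6.90 under control housing. Mobp, another basic protein of myelin, had 4.00 and 1.42 under dark rearing, against 3.95 and 3.17 under control housing. Mag, the glycoprotein of the membrane next to the axon, had 6.43 and 4.47 under dark rearing, against 6.67 and 5.73 under control housing. All of these were lowest in dark-reared 2 and second lowest in control 2. Cnp, a cyclic nucleotide phosphodiesterase of the non-compact sheath, had 5.20 and 3.24 under dark rearing, against 5.27 and 4.26 under control housing. Cldn11, the claudin of the tight junctions in myelin, had 5.32 and 3.26 under dark rearing, against 5.32 and 4.18 under control housing. Gjb1 (a connexin of oligodendrocyte gap junctions), the tetraspanin gene Tspan2, Plekhb1, Pllp (plasmolipin) and Tmem125 kept that order too. Over the 13 measured structural genes the range over the arrays ran from 1.26 in Plekhb1 to 3.37 in Mal, the gap of dark-reared 2 below dark-reared 1 had a median of -2.01, and that of control 2 below control 1 a median of -0.94.

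Genes of myelinating cells outside the sheath structure mostly had the same order. Gsn, which encodes the actin-severing protein gelsolin, had log2 signals of 5.47 and 2.99 under dark rearing, against 5.64 and 4.58 under control housing, with a group difference of -0.88 (standard error 0.97), next in size to Opalin and Mal. Trf, the iron carrier transferrin, had 2.57 and 0.15 under dark rearing, against 2.66 and 1.60 under control housing. Cryab, a small heat shock protein, had 2.28 and 0.22 under dark rearing, against 2.35 and 1.31 under control housing. These genes were level in dark-reared 1 and control 1 within 0.17. Gpr37, a G protein-coupled receptor that restrains oligodendrocyte differentiation, had 1.47 and 0.15 under dark rearing, against 1.83 and 0.82 under control housing. Lpar1 (a lysophosphatidic acid receptor), Ninj2 (an adhesion protein) and Evi2a were also lowest in dark-reared 2, at ranges from 1.27 to 1.65. Hapln3, a link protein that binds hyaluronan, was the exception, with -1.09 and -0.38 under dark rearing, against -0.65 and -0.43 under control housing. It was lowest in dark-reared 1 and highest in dark-reared 2, the array that was lowest in the other 26 measured myelinating members.

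Set against all genes, the array order was frequent among the members. Dark-reared 2 was the lowest array in 33 of 37 members, beside 28.4% of all genes tested, and in 26 of the 27 myelinating members. Dark-reared 2 was lowest and control 2 second lowest in 31 of 37 members, beside 9.98% of all genes tested. Control 1 was the highest array in 26 of 37, beside 23.8% of all genes tested. Dark-reared 1 was at least 2-fold above dark-reared 2 in 27 of 37 members, beside 4.48% of all genes tested, and at least 4-fold in 12, all of them myelinating, beside 0.933% of all genes tested. Control 1 was at least 2-fold above control 2 in 12 of 37 members, beside 3.16% of all genes tested. Dark-reared 1 lay within 0.25 of control 1 in 32 of 37, beside 56.7% of all genes tested. Both replicate 1 arrays lay above their replicate 2 partners of the same rearing in 32 of 37 members, beside 19.9% of all genes tested. The range over the 4 arrays was 2 or more in 16 of 37, all of them myelinating, beside 3.61% of all genes tested.

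Members with a wider gap between the dark-reared arrays also had a wider gap between the control arrays. The dark-reared gap (replicate 2 minus replicate 1) and the control gap, which share no sample, had a Pearson correlation of 0.87 and a Spearman correlation of 0.86 across the 37 members. Across all genes tested the same Pearson correlation was -0.16. Across the 26 myelinating members other than Hapln3 it was 0.70, and the control gap had a median of 0.47 times the dark-reared gap. Across the 31 further myelin genes described below, the Pearson correlation was 0.48 and the Spearman correlation 0.51. These values describe genes measured on the same 4 arrays, with dark-reared 2 and control 2 on the same slide. The genes are not independent replicates.

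**Figure D3:**
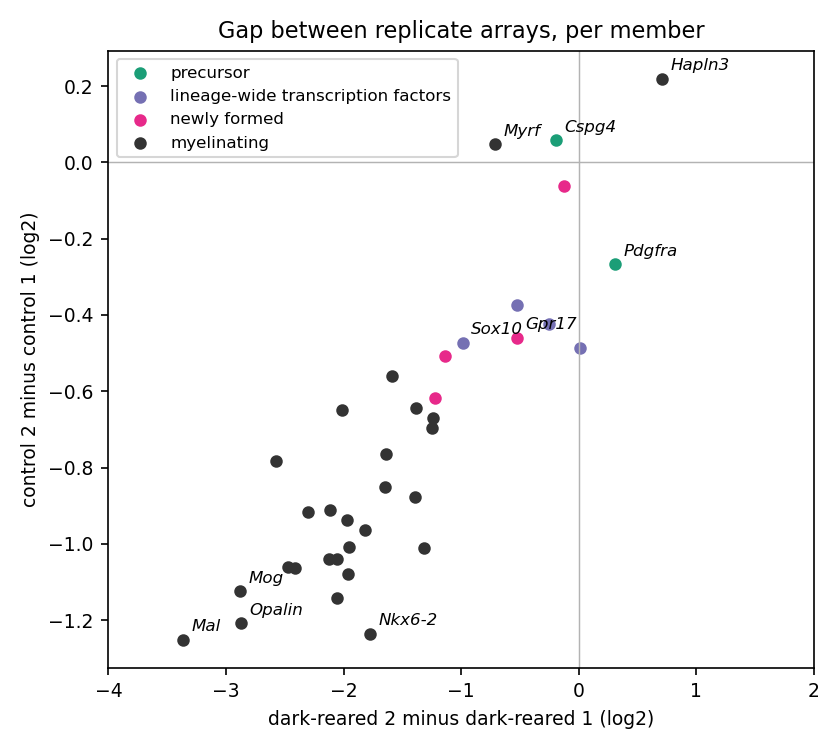
Gap of dark-reared 2 minus dark-reared 1 (horizontal axis, log2) against the gap of control 2 minus control 1 (vertical axis, log2), 1 point per member, coloured by stage. Most myelinating members lie below zero on both axes, with Mal at -3.37 and -1.25, and Hapln3 lies above zero on both.

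Second probes of a member mostly had the same array order. Of 17 members with 2 or more detected probes, 15 had all probes on the same side of zero for the rearing difference and 13 had the same lowest array in all. The exceptions in sign were Mbp and Tcf7l1. For Mbp, the probes for NM_010777 were low in dark-reared 2, while the probe for NM_001025245 had 2.73 and 2.49 under dark rearing, against 2.26 and 2.60 under control housing. That probe ranged over 0.48, against 2.06 for the brightest Mbp probe and 2.73 for the remaining one. It was lowest in control 1, the array in which the brightest probe was highest.

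**Figure D4:**
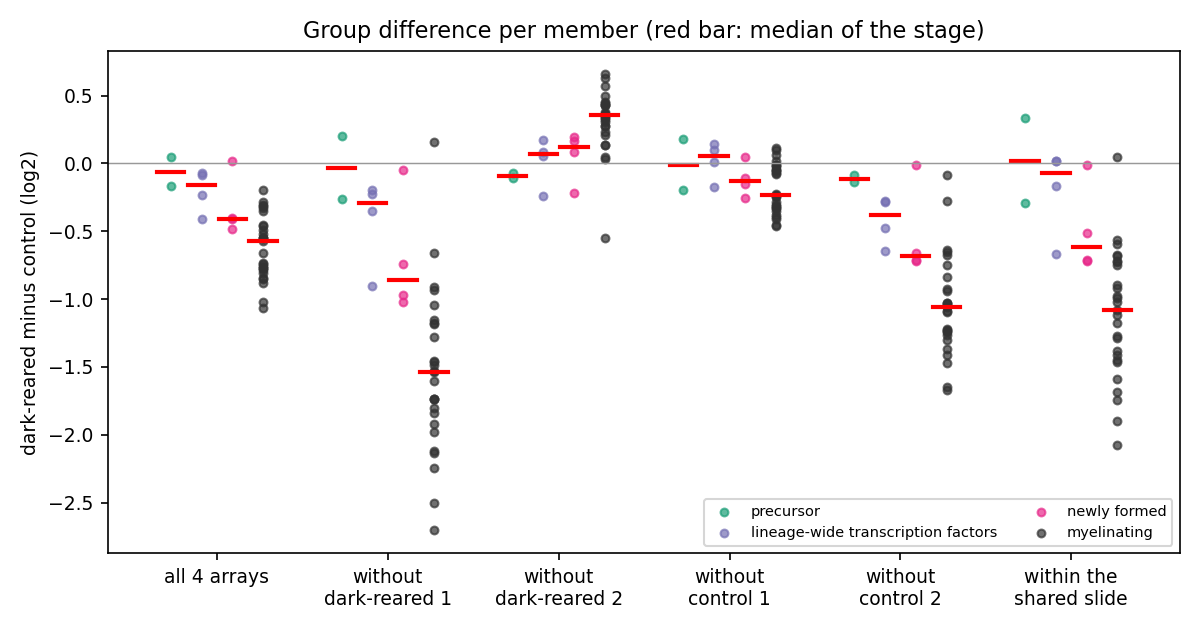
Dark-reared minus control difference of each member (log2, vertical axis) with all 4 arrays, with each array left out and within the shared slide, by stage, with a red bar at the median of the stage. The myelinating median moves between 0.36 without dark-reared 2 and -1.53 without dark-reared 1.

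Other genes of the lineage, from lists that do not hold the members, were read in the same way. Of 31 tested further genes of myelinating oligodendrocytes 0 passed the limma test in either direction, 29 had a mean difference below zero and 28 were lowest in dark-reared 2, with a median deviation of 0.51 in dark-reared 1 and -0.86 in dark-reared 2, against 0.69 in control 1 and -0.13 in control 2. Hapln2, a link protein of nodes of Ranvier, had log2 signals of -2.95 and -5.47 under dark rearing, against -2.83 and -3.52 under control housing, and was not well above background in dark-reared 2. S1pr5, a sphingosine phosphate receptor of oligodendrocytes, had 0.30 and -1.86 under dark rearing, against 0.54 and -0.43 under control housing. By measured signal both had the order of the myelinating members. Of 8 tested further genes of the newly formed stage 0 passed and 6 were lowest in dark-reared 2. Among them Tcf7l2, a Wnt effector that thalamic neurons also express, is itself in the list of thalamus markers and had their order instead. Its log2 signals were 0.85 and 2.34 under dark rearing, against 2.93 and 1.46 under control housing. Of 12 tested further precursor genes 0 passed, and their median deviations stayed within 0.12 of zero on all arrays. Single genes of the 12 were less level, with ranges over the 4 arrays from 0.27 to 1.06 and a median range of 0.50. Dark-reared 2 was lowest in 5 of the 12, beside 28.4% of all genes tested, and in 4 of these control 2 was second lowest, beside 9.98% of all genes tested. Neu4, a sialidase, had the widest difference of the 12, -0.46 (standard error 0.38), and the array order of the myelin genes, with -2.24 and -3.20 under dark rearing, against -2.16 and -2.37 under control housing.

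Signals that act on the lineage and the axonal partners of myelin showed small differences. Of 24 tested ligands, receptors and effectors 0 passed, 12 were above and 12 below zero, and the median difference was -0.0047, and above zero with each other scaling tried. Hes1, a Notch effector that holds cells undifferentiated, had log2 signals of -3.24 and -3.80 under dark rearing, against -4.09 and -4.16 under control housing, a difference of 0.60 (standard error 0.24, adjusted p = 1.00 with limma). Its groups did not overlap, as in 4 of the 24 genes, beside 19.1% of all genes tested. Of 13 tested genes of nodes, paranodes and juxtaparanodes 0 passed and all 13 had a mean difference below zero, beside 51.9% of all genes tested. The median difference of these genes was -0.20. In 3 of the 13 the groups did not overlap, all lower, beside 9.58% of all genes tested. Kcna2 was among these, with -0.37 and -0.67 under dark rearing, against 0.05 and -0.27 under control housing. Of the 13 genes, Kcna1, a potassium channel gathered beside the paranodes, had 4.04 and 3.43 under dark rearing, against 4.37 and 3.97 under control housing. Nfasc, which encodes neurofascin forms of both axon and oligodendrocyte, had 2.29 and 1.08 under dark rearing, against 2.36 and 1.80 under control housing. In Kcna1 and Nfasc the groups overlapped, and both genes were lowest in dark-reared 2. Dark-reared 2 was lowest in 8 of the 13, beside 28.4% of all genes tested.

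Markers of other cells and regions were given the same array-by-array reading. Astrocyte markers, 14 of 14 tested, had medians of -0.06 and 0.05 under dark rearing, against 0.05 and -0.09 under control housing, and summed signals of 191 to 221 in dark-reared and 202 to 228 in control samples, in units of the 75th percentile of the array. Neuron markers, 13 of 13 tested, had medians of -0.13 and -0.06 under dark rearing, against 0.20 and -0.07 under control housing, and summed signals of 246 to 276 and of 267 to 325. Cortex and hippocampus markers, 14 of 15 tested, had medians of 0.39 and 0.32 under dark rearing, against -0.03 and -0.35 under control housing, and 4 of them, Fezf2 and Tbr1 among these, were higher in both dark-reared than in both control samples, beside 9.5% of all genes tested. With limma 3 of the 14 had an unadjusted p under 0.05 and 0 an adjusted p under it. Their summed signals were 64.5 to 197 under dark rearing and 82.8 to 148 under control housing. Striatum markers, 11 tested, were low in dark-reared 2 and in control 1, with medians of 0.78 and -0.86 under dark rearing, against -0.64 and 0.61 under control housing, and summed signals of 124 to 378 and of 144 to 343. Ependyma and choroid plexus markers, 11 of 11 tested, were lowest in control 2 for all 11, with summed signals of 20.6 to 26 in dark-reared and 7.53 to 27.1 in control samples. Thalamus markers, 14 of 15 tested, had summed signals of 19.1 to 69.4 and of 27.4 to 82.8. Meninges markers, 9 of 10 tested, were highest in dark-reared 2 for 8 of the 9, with medians of -0.45 and 0.48 under dark rearing, against 0.10 and -0.15 under control housing, and summed signals of 16.8 to 25.5 and of 16 to 20.9. Microglia markers, 13 of 14 tested, were lowest in control 1 for 9 of the 13, with summed signals of 32.2 to 39.4 and of 28.4 to 42.2. Endothelial and pericyte markers, 14 of 14 tested, were lowest in dark-reared 2 for 7 of the 14, with medians of 0.11 and -0.12 under dark rearing, against -0.09 and 0.08 under control housing, and summed signals of 43.7 to 51.2 and of 45 to 50.5. Of Schwann cell markers, 5 of 8 were tested, 4 of them well above background on all arrays, with summed signals of 2.84 to 3.82 and of 3.76 to 4.18. Of the 5, 3 had a mean difference above zero and 2 below, with a median of 0.013. The one with the largest difference, Prx, the periaxin gene of Schwann cells, had log2 signals of -4.48 and -3.15 under dark rearing, against -1.56 and -1.30 under control housing, a difference of -2.39 (standard error 0.50, adjusted p = 1.00 with limma). The myelinating members had summed signals of 130 to 513 in dark-reared and 306 to 550 in control samples. The part of these other cells and regions in the differences of the members was not tested.

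**Figure D5:**
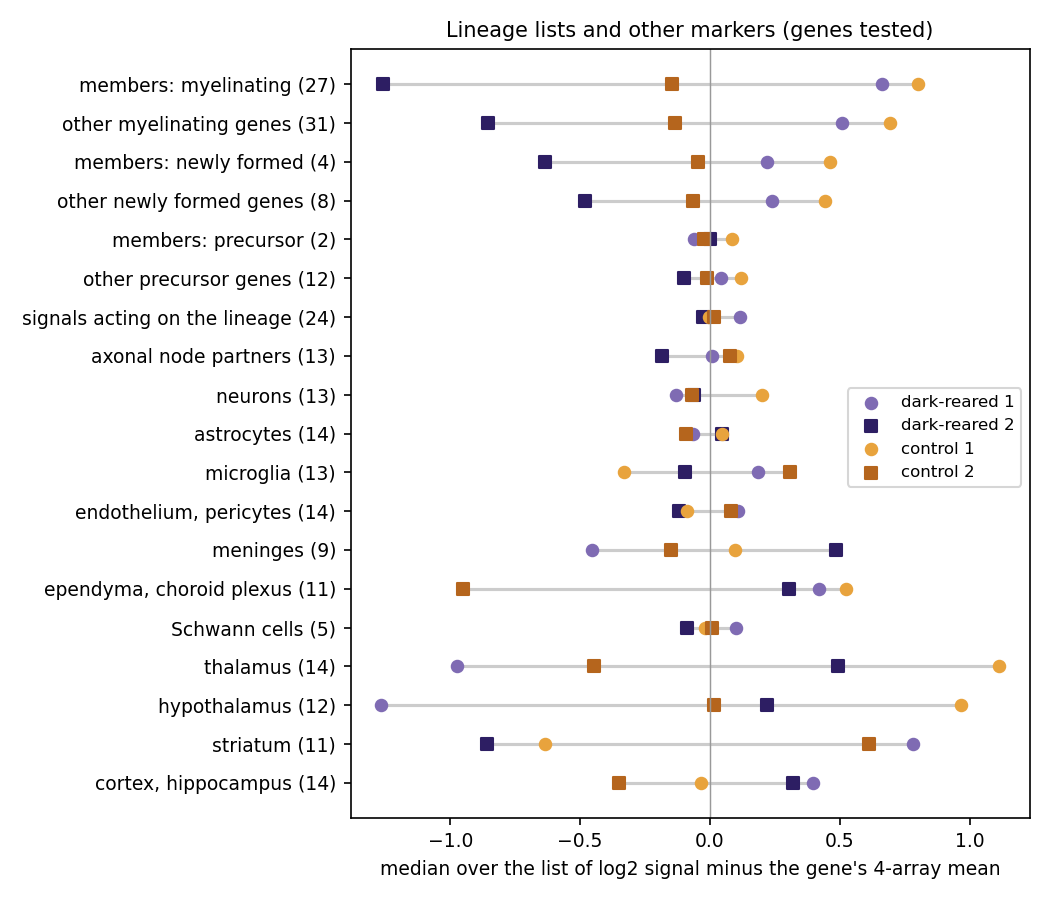
Median over each gene list of the log2 signal minus a gene's 4-array mean (horizontal axis), 1 row per list with the number of genes tested, 1 symbol per array. The member and other lists of myelinating genes place dark-reared 2 at the low end (-1.26 and -0.86), whereas the thalamus and hypothalamus rows place dark-reared 1 there (-0.97 and -1.27).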

How the data were processed

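Total RNA was labelled with Cy3 and hybridised to Agilent arrays. The deposited spot intensity is, per the file headers, the processed signal of Feature Extraction 10.7.3.1, which subtracts background and detrends within the array; the submitters' processing notes give version 10.7. The deposited log2 values, with a median of 6.84 on all 4 arrays and a method of normalization not stated in these sources, were an alternative. Their shares of genes without overlap, 11.8% higher and 7.41% lower, were the same as with quantile normalization. These 2 alternatives are therefore not separate checks. Outlier spots were left out, spots of a probe averaged, and the array's 75th percentile subtracted on the log2 scale. RefSeq accessions gave 26918 of 41174 probes 1 symbol. A probe had to be well above background throughout 1 group or both, and the brightest stood for its gene, which left 21426. limma 3.58.1 in R 4.3.3 (lmFit, eBayes, two-sided) compared the groups, with Benjamini-Hochberg adjustment over all of these and a threshold of 0.05; the fit was tested on simulated data. Depth has no counterpart here: the 4 arrays limit the precision. Members and lists were chosen with earlier results of these data known. All members are named or counted; other lists are described by counts and medians, with values for some of the 4 genes a list with the largest differences. Alternatives covered scaling, background, filter, probes, variance model, replicate block, slide and each array left out. Further genes of those lists are not reported here.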

Additional observations from a re-analysis of the deposited data

How the results depend on the processing

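With limma, 0 genes had an adjusted p under 0.05 in all 19 settings, and 154 to 1178 had an unadjusted p under 0.05. The lowest adjusted p of a member in any setting was 0.651, without dark-reared 1, where 16 of 37 members had an unadjusted p under 0.05, beside 5.50% of all genes tested there. Deviations of same-numbered arrays had a correlation of -0.16 over all genes, so the numbers were not taken as pairs, although the members themselves had a gap correlation of 0.87 and the labels do not say what a number marks. With the replicate block 0 genes were called and 271 had an unadjusted p under 0.05, against 267 without it, and crossed numbers, chosen after seeing the data, gave 0 and 433. Members lower without overlap numbered 0 with median scaling (6.57% of all genes), 2 with normexp (7.90%), 2 with outlying backgrounds replaced (7.93%), 2 with probes averaged (9.67%) and 3 of 55 when every probe was tested (9.76% of all probes). The signal list had a median of 0.028 with median scaling, 0.010 with the percentile over detected probes, 0.017 with quantile normalization, 0.042 with normexp, 0.043 with backgrounds replaced, 0.018 with deposited values and 0.0084 with every probe. Further precursor genes had 0.00049 with normexp and 0.10 within the shared slide, and node genes -0.095 with probes averaged and -0.087 with every probe. Within the slide the precursor median was 0.020, Olig2 0.018, Nkx2-2 0.019, Tcf7l1 -0.014 and Hapln3 0.050, and Tcf7l1 was -0.12 with probes averaged. The cause of these changes was not tested.

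Leaving out each array in turn, the median ran from -1.53 to 0.36 over myelinating, -0.86 to 0.12 over newly formed and -0.38 to 0.069 over lineage-wide members. For the other lists it ran from -1.08 to 0.25 (myelin), -0.64 to 0.080 (newly formed), 0.011 to 0.14 (signals) and -0.28 to -0.079 (nodes). Members higher without overlap numbered 0 to 8 and lower 1 to 33, the upper ends without dark-reared 2 (31.5% of all genes higher there) and without dark-reared 1 (32.6% lower), since 1 array against 2 separates more often. With 1 array left out at a time, the differences of members whose sign changed ran over these ranges: Pdgfra -0.11 to 0.20, Sox10 -0.90 to 0.082, Olig1 -0.35 to 0.18, Olig2 -0.28 to 0.14, Nkx2-2 -0.47 to 0.012 and Bcas1 -0.97 to 0.16. Further ranges were Enpp6 -1.02 to 0.20, Tcf7l1 -0.045 to 0.083, Myrf -0.66 to 0.049, Nkx6-2 -1.74 to 0.035, Ugt8a -1.80 to 0.32 and Fa2h -1.92 to 0.38. Further ranges were Gal3st1 -1.18 to 0.21, Aspa -1.53 to 0.43, Mbp -1.74 to 0.27, Mog -2.25 to 0.63, Mag -1.74 to 0.23 and Mobp -2.13 to 0.44. Further ranges were Cnp -1.53 to 0.43, Mal -2.70 to 0.66, Cldn11 -1.49 to 0.57, Opalin -2.50 to 0.37, Gjb1 -1.45 to 0.14 and Tspan2 -1.46 to 0.36. Further ranges were Plekhb1 -0.91 to 0.34, Pllp -1.28 to 0.36, Tmem125 -1.84 to 0.27, Trf -1.98 to 0.43, Cryab -1.60 to 0.45 and Gsn -2.12 to 0.36. Further ranges were Gpr37 -1.18 to 0.14, Lpar1 -1.15 to 0.50, Ninj2 -0.93 to 0.30, Evi2a -1.04 to 0.34 and Hapln3 -0.55 to 0.16. The limit is 2 arrays a group, and a lone array is assumed to vary like the rest.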
